A study of Mus musculus with 4 samples.

Results

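The granzymes and perforin are the killing proteins of cytotoxic lymphocytes, and their transcripts were read in helper T (Th) cells on 4 microarrays. The 10 genes were Gzma, Gzmb, Gzmc, Gzmd, Gzme, Gzmf, Gzmg, Gzmk, Gzmm and Prf1, out of 18749 genes with a named probe. They were taken by gene symbol as a family that had been selected on its measured values on these same arrays, so the differences between genotypes given here describe the genes and support nothing by themselves. 6 of them, Gzmb to Gzmg, lie in a single stretch of chromosome 14, whereas Gzma and Gzmk lie on chromosome 13 and Gzmm and Prf1 lie apart from each other on chromosome 10. Each gene had 1 probe, printed as 1 spot on each array, so no gene of the family has a second probe to check it.

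The cells were naive CD4 T cells (CD44 low, CD62L high, CD25 negative) from the spleen of mice on a C57BL/6J background, labelled as female. Cells labelled Bach2 KO came from Bach2 flox/flox mice crossed with CD4-Cre TG mice, in which the Cd4 promoter drives the recombinase, and the others were labelled Bach2 WT. The study describes its WT controls as CD4-Cre mice, and whether cells of several mice were pooled is not given in the sources used here. Mice of the study were 8 to 12 weeks old in general. All cells were activated for 2 days through the T cell receptor (3 μg/ml of an anti-TCR-β mAb) and CD28 (1 μg/ml of an anti-CD28 mAb) and, per the labels, then kept for 3 days with 2.5 ng/ml of IL-2. The study's methods give a higher IL-2 concentration for its IL-2 conditions than the labels do. Some cells were taken as they were (before re-stimulation), and others after 4 h with immobilized anti-TCR-β mAb and no added IL-2 (after re-stimulation). There was 1 array for each condition, so no test between conditions was made and every difference lacks a replicate check.

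Granzymes are serine proteases stored in cytotoxic granules and released onto a target cell together with perforin, the product of Prf1, which forms the pores that let them in. Granzyme B cleaves after aspartate and triggers caspases, granzyme A cleaves after basic residues, and granzyme M after methionine or leucine. They are best known in CD8 T cells and NK cells, but activated CD4 T cells can make them too. Bach2 is a transcriptional repressor of the basic leucine zipper family that binds AP-1 type DNA motifs.

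Of the 10 genes, 6 were well above background (the scanner's own flag) on all 4 arrays, namely Gzma, Gzmb, Gzmc, Gzmd, Gzmm and Prf1. Gzme was so on 3 arrays, Gzmf and Gzmg on the 2 KO arrays, and Gzmk only on the KO array after re-stimulation. Signals are background-subtracted intensities, and differences are log2 values after each array was scaled to its own 75th percentile. The median standard deviation of such a difference between probes of 1 gene, over 3852 genes, was 0.088 and 0.11 for the genotypes before and after re-stimulation, and 0.151 and 0.14 for re-stimulation in WT and KO cells. That spread leaves out differences between mice, cultures and hybridizations. Where the dimmer array was not well above background, a difference is a bound, computed from the lowest signal well above background on that array, between 14.5 and 17.2.

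The labels were checked before the results were read. The Bach2 probe gave signals of 2932 and 2633 on the WT and KO arrays before re-stimulation and 3310 and 3080 after it, which is no clear check of the genotype, and where it lies relative to the deleted part is not given in the sources used here. Of 4 Y-linked genes, 3 were well above background on both KO arrays and on neither WT array, such as Eif2s3y at 1185 and 951, against the label of female, and Uty was so on 0 arrays. The study's methods say that mice of both sexes served for its in vitro work. Xist, the RNA that silences an X chromosome in female cells, was measured on all 4 arrays, at 9524 and 5221 in WT cells and 4623 and 2585 on the KO arrays. The arrays are therefore named by their labels, and sex and genotype cannot be told apart here. All 7 T cell identity genes and both CD4 lineage genes were well above background on every array, and the summed level of the former ranged from 346 to 405 times the 75th percentile. In bulk RNA, fewer cells of a type and less RNA per cell cannot be told apart.

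The promoters of 5 members are printed, those of Gzmb, Gzmc, Gzmd and Gzmg from the cluster and that of Gzma from outside it. They come from RefSeq (GRCm38.p6), run from 250 bases before to 50 bases after the start of the gene, and are written 5′ to 3′ on the strand of the gene, which is the minus strand for all 5. The windows are chr14:56262285-56262584 for Gzmb, chr14:56234608-56234907 for Gzmc, chr14:56132544-56132843 for Gzmd, chr14:56159530-56159829 for Gzmg and chr13:113100932-113101231 for Gzma. Capitals mark matches to the motifs described after them.
Gzmb: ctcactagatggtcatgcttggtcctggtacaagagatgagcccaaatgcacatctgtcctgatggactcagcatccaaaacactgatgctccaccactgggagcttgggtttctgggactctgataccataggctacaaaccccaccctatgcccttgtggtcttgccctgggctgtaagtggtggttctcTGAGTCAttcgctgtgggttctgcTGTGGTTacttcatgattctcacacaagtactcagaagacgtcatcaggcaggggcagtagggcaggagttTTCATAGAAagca
Gzmc: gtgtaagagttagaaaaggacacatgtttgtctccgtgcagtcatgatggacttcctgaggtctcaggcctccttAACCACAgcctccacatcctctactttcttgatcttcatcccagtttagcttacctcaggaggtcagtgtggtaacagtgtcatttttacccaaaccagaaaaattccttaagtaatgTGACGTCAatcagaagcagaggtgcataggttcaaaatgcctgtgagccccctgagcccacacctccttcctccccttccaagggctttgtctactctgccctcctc
Gzmd: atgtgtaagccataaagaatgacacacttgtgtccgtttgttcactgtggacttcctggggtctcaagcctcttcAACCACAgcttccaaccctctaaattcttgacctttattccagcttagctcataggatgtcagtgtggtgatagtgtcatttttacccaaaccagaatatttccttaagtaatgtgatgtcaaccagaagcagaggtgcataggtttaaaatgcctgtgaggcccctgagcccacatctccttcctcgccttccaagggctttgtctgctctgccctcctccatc
Gzmg: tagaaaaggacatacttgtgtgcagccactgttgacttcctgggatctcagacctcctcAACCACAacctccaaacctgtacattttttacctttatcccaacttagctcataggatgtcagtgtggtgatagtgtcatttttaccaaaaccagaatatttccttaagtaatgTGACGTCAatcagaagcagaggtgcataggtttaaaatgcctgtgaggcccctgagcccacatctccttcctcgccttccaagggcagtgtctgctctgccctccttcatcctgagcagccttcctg
Gzma: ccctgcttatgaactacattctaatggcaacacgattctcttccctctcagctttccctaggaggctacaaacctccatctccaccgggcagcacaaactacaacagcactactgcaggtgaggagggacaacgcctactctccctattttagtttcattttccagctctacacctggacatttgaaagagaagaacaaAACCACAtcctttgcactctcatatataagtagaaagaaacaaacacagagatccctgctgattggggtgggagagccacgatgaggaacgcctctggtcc

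Promoter sequence set Gzmc to Gzmg apart from the other members. Across the 10 pairs among these 5 genes, the windows aligned over 273 to 297 bases with 87.4% to 94.3% identity. The other 35 pairs of members, those with Gzmb included, aligned over no more than 31 bases. The exact AP-1 letters TGAGTCA, searched on both strands, were in the Gzmb window alone, 58 bases before the start, against 5.2% of all 32851 RefSeq windows of that length. The CRE letters TGACGTCA were in Gzmc, Gzmf and Gzmg (1.79% of all windows), and the Runx letters TGTGGTT were in 7 of the 10 members, Gzma to Gzmg (5.27%). The STAT letters TTCNNNGAA were in Gzmb and in 1 of the 2 windows of Gzmm (8.3%), and the T-box letters AGGTGTGA in none (1.28%). None of these motifs overlapped another in a member's window. The matches describe letters in a window, the motifs were picked with the data known, and the near identity of Gzmc to Gzmg means that their shared matches are not separate counts.

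Before re-stimulation, 8 of the 9 members that could be compared were at least 2-fold higher on the KO array, against 5.27% of all 12105 genes compared, and 0 were at least 2-fold lower, against 2.83%. The median log2 difference was 3.26 for the members and -0.004 for all genes. The choice of the family used this comparison, so nothing is read from the gap between these shares. The 6 genes of the cluster differed by 1.26 to 5.44 on the log2 scale, with a median of 4.24 when bounds enter at their value. Of the 3 granzymes elsewhere, Gzma lay within that range at 3.26, Gzmm at -0.47 lay below it, and Gzmk was not well above background on either array.

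**Figure D1:**
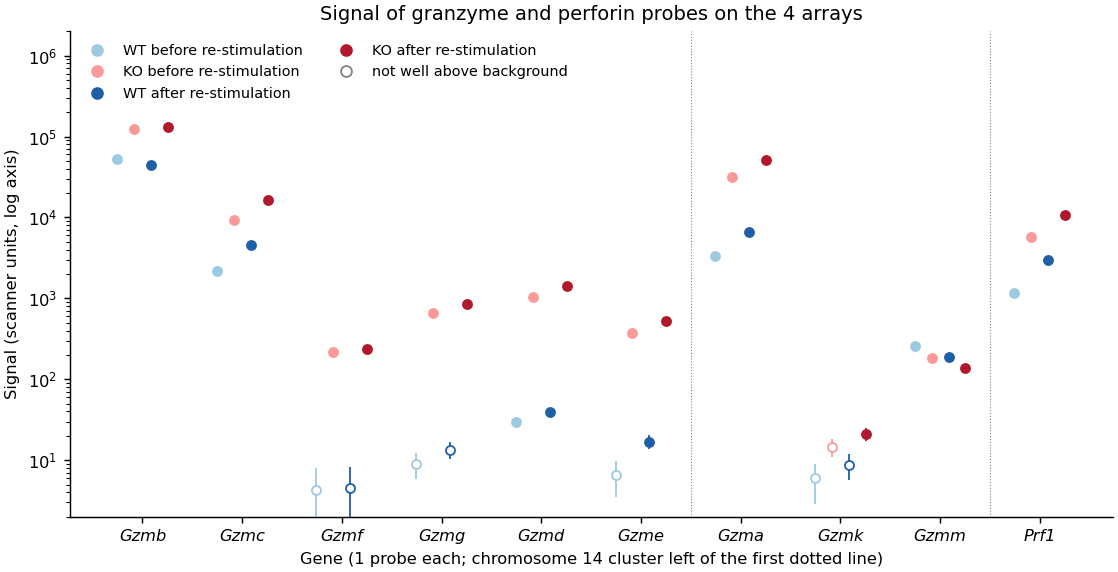
Signal of each member's probe (log axis, background-subtracted intensity) on the 4 arrays, 1 point per array, with open points where the probe was not well above background. The KO arrays lie above the WT arrays for the cluster genes, Gzma and Prf1, whereas Gzmm lies slightly below.

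Gzmb, the caspase-activating granzyme, was already bright in WT cells, with signals of 52803 before and 44735 after re-stimulation. On the KO arrays it gave 125468 and 132063. Both KO arrays lay above both WT arrays, by 2.39-fold before and 2.62-fold after re-stimulation. These were the smallest genotype differences in the cluster.

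Gzmc, an orphan granzyme of activated killer cells, had signals of 2152 and 4536 in WT cells before and after re-stimulation. On the KO arrays the signals were 9384 and 16197. The KO arrays were again the 2 highest, 4.38-fold and 3.16-fold above WT at the matching time.

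Gzmd, Gzme, Gzmf and Gzmg, further granzymes whose proteins resemble granzyme C, were at or near background in WT cells and clearly measured on the KO arrays. Gzmd gave 30.0 and 39.4 in WT cells against 1038 and 1420 on the KO arrays, differences of 34.8-fold and 31.9-fold. Gzme gave 6.62 and 16.98 in WT cells, the first not well above background, against 370 and 522 on the KO arrays. The difference was at least 24.6-fold before and 27.3-fold after re-stimulation. Gzmg, at 8.99 and 13.5 in WT cells, was not well above background there and gave 654 and 844 on the KO arrays, at least 43.5-fold and 51.5-fold higher. Gzmf, at 4.25 and 4.57 in WT cells, was not well above background either, and its KO signals of 218 and 239 were at least 14.5-fold and 14.6-fold higher. For these 4 genes no WT value came near a KO value. On the WT array before re-stimulation the Gzmb and Gzmc probes gave 52803 and 2152. There the probes for Gzme, Gzmf and Gzmg failed the background flag, and the Gzmd probe passed it at 30.0. Cross-hybridization among the probes of the cluster was not tested, and their separate values are uncertain to that extent.

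**Figure D2:**
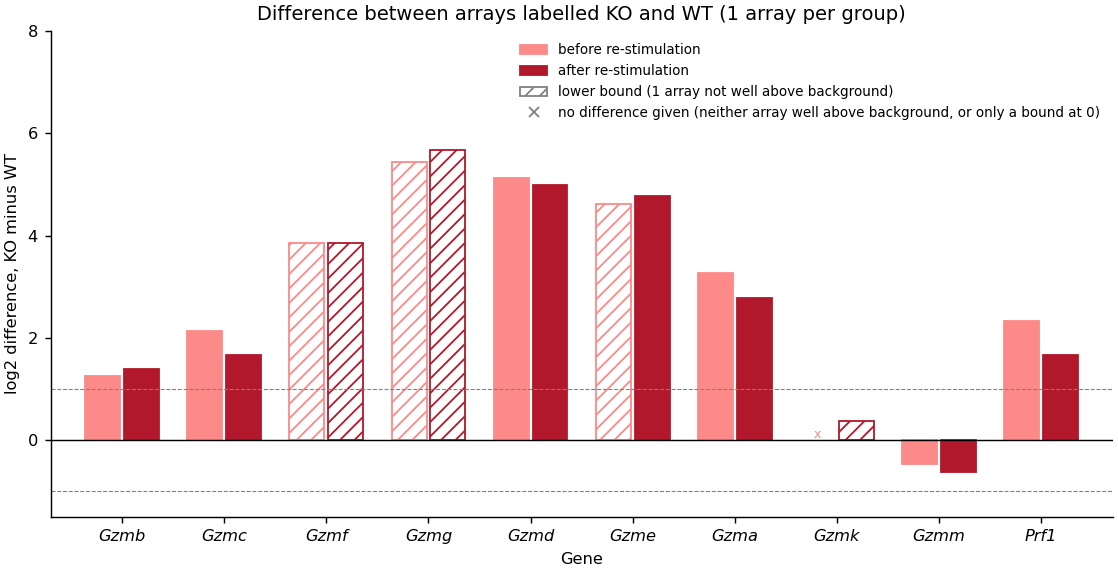
Difference on the log2 scale between the KO and WT arrays for each member, before (light) and after (dark) re-stimulation, with hatched bars for bounds, a cross where no difference is given and dashed lines at 2-fold. The cluster runs from 1.26 for Gzmb to bounds of 5.44 and 5.69 for Gzmg, and Gzmm lies below 0.

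These differences ranked high over all genes, but the family had been selected on values of these same arrays. Nothing is therefore read from the ranks. Before re-stimulation 3 of 12105 genes, Gzmg included, were as high as Gzmg or higher, and the counts were 8 for Gzmd, 15 for Gzme and 31 for Gzmf. Gzma stood at 56, Prf1 at 140, Gzmc at 171 and Gzmb at 441. After re-stimulation, over 12341 genes, these 8 members stood in the same order, from 6 for Gzmg to 364 for Gzmb, with Prf1 (251) and Gzmc (252) side by side. Bounds entered these counts at their value. Before re-stimulation Gzme, Gzmf and Gzmg were such bounds, compared only through their KO signals.

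The neighbours of the cluster on chromosome 14 were read in the order of the RefSeq table. The stretch holds 21 coding genes, of which 19 had a named probe. At each time 9 were at least 2-fold higher on the KO array, of 13 compared before and 11 after re-stimulation. The shares over all genes compared were 5.27% and 5.17%. Without the 6 members, which were selected on these values, 3 of 7 and 3 of 5 neighbours compared were higher. These were Cma1, Mcpt8 and Ctsg, which code for chymase 1, a basophil protease and cathepsin G. Cma1 and Mcpt8 could be compared only through their KO signals. Ctsg gave 16.9 and 17.9 in WT cells and 274 and 249 on the KO arrays, log2 differences of 4.02 and 3.62. Mcpt8 gave 8.48 and 8.73, not well above background, in WT cells and 309 and 333 on the KO arrays, at least 4.36 and 4.35 higher on the log2 scale. Cma1 showed the same pattern, with 11.4 and 6.56 against 175 and 166 and bounds of 3.54 and 3.35. Not all genes of the stretch followed. Cma2, Mcpt1, Mcpt2, Mcpt9 and Mcpt4 were well above background on 0 of the 4 arrays, Gzmn was so on the KO array before re-stimulation only, at 19.6, and Khnyn and Sdr39u1 at the edge differed by 0.81 and 0.03 before re-stimulation. None of the genes compared was 2-fold lower.

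**Figure D3:**
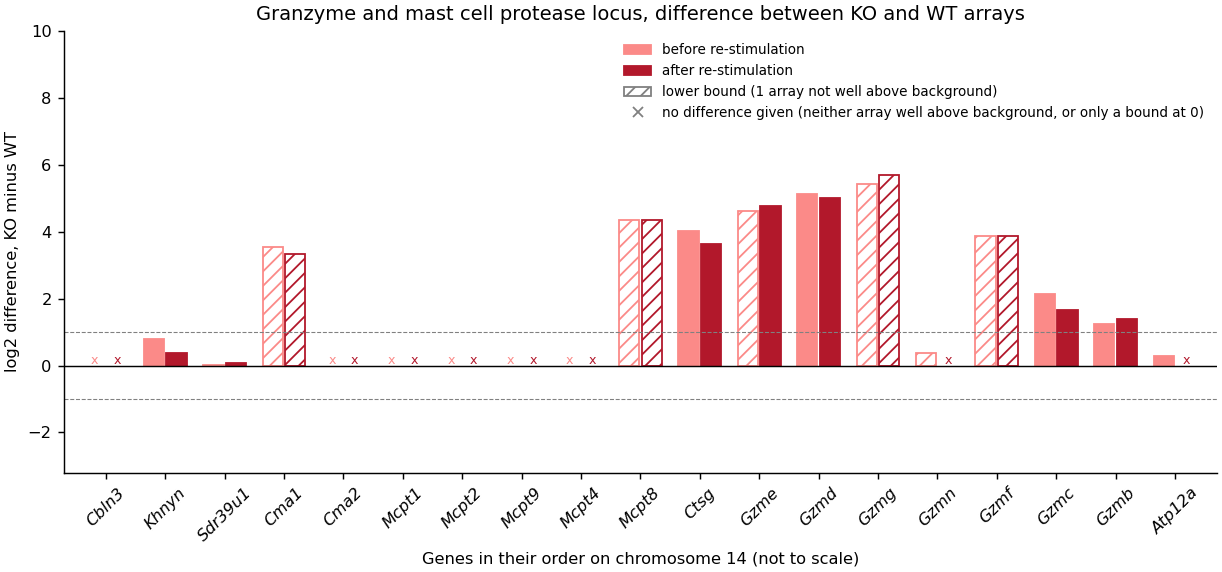
Difference on the log2 scale between the KO and WT arrays for the genes of the chromosome 14 stretch in their order (not to scale), before (light) and after (dark) re-stimulation, with hatched bars for bounds and crosses where no difference is given. High bars stand at Cma1 and from Mcpt8 to Gzmb, except Gzmn, and the proteases between Cma1 and Mcpt8 have none.

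Among the granzymes outside the cluster, the 3 genes differed from each other. Gzma, the most abundant tryptase of killer cell granules, had signals of 3301 and 6660 in WT cells and 31477 and 51284 on the KO arrays. Both KO values lay above both WT values, by 9.58-fold before and 6.83-fold after re-stimulation. Gzmk, a tryptase that neighbours Gzma, gave 5.94, 14.5 and 8.78 on the WT array before, the KO array before and the WT array after re-stimulation, none of them well above background. Its 1 measured value was 21.3 on the KO array after re-stimulation, a bound of 0.38 on the log2 scale. Gzmm, which is found mainly in innate killer cells, gave 258 and 188 in WT cells and 185 and 137 on the KO arrays. The KO array was the lower at both times, with log2 differences of -0.47 and -0.63, within 2-fold and above the error of about 0.21 that the scanner's model gives for the spots.

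The surroundings of these genes also differed. Of the genes around Gzma and Gzmk on chromosome 13, these members left out, 2 of 4 compared were at least 2-fold higher on the KO array before re-stimulation (5.27% of all genes) and 3 of 4 after it (5.17%). Esm1, coding for the proteoglycan endocan, gave 84.0 and 482 in WT cells and 525 and 1486 on the KO arrays, differences of 2.65 and 1.45. Gpx8, coding for a peroxidase of the endoplasmic reticulum, gave 12.8, not well above background, and 55.6 in WT cells against 248 and 377, at least 4.04 before and 2.59 after re-stimulation. Ccno, coding for a cyclin family protein, differed by 0.17 and 1.46. Around Gzmm, 0 of 5 and 0 of 6 neighbours compared passed 2-fold in either direction. Around Prf1, 1 of 4 neighbours was higher (Nodal, 1.25) and 1 lower (Pald1, a bound of -2.12) before re-stimulation, and 0 of 3 passed 2-fold after it. Both genes were dim. Nodal gave 22.1 and 52.3 on the WT and KO arrays before re-stimulation. Pald1 was well above background only on the WT array before re-stimulation, at 73.5.

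Prf1, coding for the pore-forming partner of the granzymes, was also higher on the KO arrays. Its signals were 1149 and 3020 in WT cells and 5724 and 10803 on the KO arrays. The KO array was higher at both times, 5.01-fold before and 3.17-fold after re-stimulation. Its neighbours Adamts14 and Eif4ebp2 differed by 0.31 and -0.01 before re-stimulation. Averaged over its probes, Adamts14 differed by 0.79.

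After re-stimulation, 8 of 10 members were at least 2-fold higher on the KO array, against 5.17% of all genes compared, and 0 were lower by that much, against 3.86%. The median was 2.22 for the members and 0.02 for all genes. The 8 genes were those of the earlier time point. The family had been selected on values of these same arrays, so nothing is read from these shares or from that repeat. The difference changed little with re-stimulation for Gzmb (by 0.13), Gzmd (by -0.12) and Gzmm (by -0.16), and was smaller afterwards for Gzmc (by -0.47), Gzma (by -0.49) and Prf1 (by -0.66). With 1 array per condition, none of these changes was tested.

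The response to re-stimulation was then compared within each genotype. In WT cells 3 of 7 members compared were at least 2-fold higher after it, against 13.3% of all genes, and 0 were lower, against 13.7%. In KO cells 3 of 10 were higher, against 12.5%, and 0 lower, against 13.1%. Of all genes past 2-fold, 49.3% in WT cells and 48.9% in KO cells were higher, which became 29.1% and 30.8% with scaling to the array median, 71.5% and 67.7% with scaling to Cd3e, and 59.5% and 59.7% with no filter and no floor. The members' medians were 0.88 and 0.71.

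**Figure D4:**
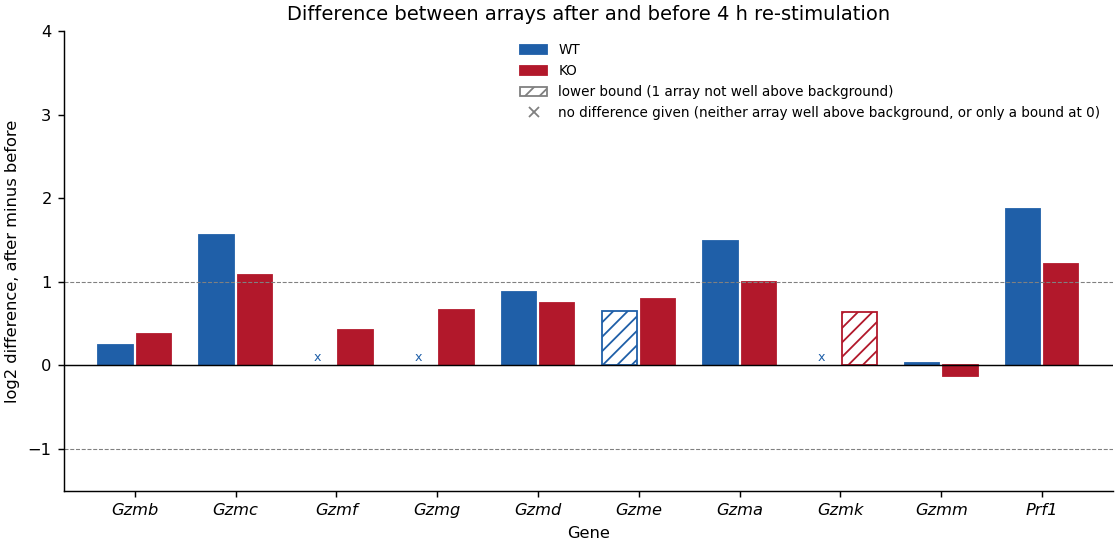
Difference on the log2 scale between the arrays after and before re-stimulation for each member, in WT and KO cells, with hatched bars for bounds, crosses where no difference is given and dashed lines at 2-fold. Gzma, Gzmc and Prf1 reach or pass 2-fold in both, and Gzmb and Gzmm lie near 0.

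The same genes, Gzma, Gzmc and Prf1, were those past 2-fold in both genotypes. In WT cells Prf1 was 3.67-fold, Gzmc 2.94-fold and Gzma 2.81-fold higher after re-stimulation. In KO cells the values were 2.32-fold, 2.12-fold and 2.01-fold, with Gzma at the threshold itself, and 0 members reached 2-fold there with scaling to the array median. Gzmd was 1.84-fold and 1.68-fold higher, and Gzme at least 1.57-fold and 1.74-fold. Gzmb differed by 0.24 and 0.37 on the log2 scale, the first turning to -0.06 with scaling to the array median. Gzmm differed by 0.03 and -0.13, and its sign changed with the scaling in both genotypes, from -0.27 to 0.32 and from -0.40 to 0.13. Of the 6 members measured on all arrays, 5 had their levels in the order WT before, WT after, KO before and KO after, and Gzmm did not.

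Genes whose products work with the granzymes were counted next, against the 5.27% of all genes that were higher and 2.83% lower before re-stimulation. Among 10 genes of granule content and processing, 1 was at least 2-fold higher before re-stimulation, and the median difference was 0.18. That gene was Ctsh, a cathepsin, with 35.2 in WT cells and 273 on the KO array. Srgn, the proteoglycan that packs the granule, and Nkg7, a granule membrane protein, differed by 0.55 and 0.21. Of 11 genes for granule release, such as Rab27a and Unc13d, 0 passed 2-fold before re-stimulation, and their median was 0.07. Of 7 inhibitors compared, 1 was higher, Serpina3f by 1.20, whereas Serpinb9, the inhibitor of granzyme B, differed by 0.70. Of 8 other killing ligands and cytokines, 1 was higher, Ifng by 1.75.

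After re-stimulation, when 5.17% of all genes were higher and 3.86% lower, the same groups gave 1 higher and 1 lower of 10 (Ctsh, a bound of 3.20, and Ctsl, -1.31), 0 and 1 of 11 (Lyst, a bound of -1.73), 0 and 0 of 7, and 1 and 0 of 8 (Tnfsf10, 1.15). Many of them responded to re-stimulation. In WT cells 5 of 10 content genes and 1 of 11 release genes were at least 2-fold higher after it. So were 3 of 7 inhibitors and 6 of 8 ligands. In KO cells the counts were 5, 1, 3 and 6, against 13.3% and 12.5% of all genes. The counts at least 2-fold lower were 0, 2, 0 and 1 in WT cells. In KO cells they were 0, 2, 1 and 1, against 13.7% and 13.1% of all genes. The medians of the release genes were -0.28 and -0.63. Ifng, the main Th1 cytokine, was higher by 9.30 and 7.46 on the log2 scale in WT and KO cells. Crtam, a receptor of cytotoxic CD4 T cells, was higher by 7.82 and 7.63, and Fasl, the ligand of the Fas death receptor, by 3.33 and 2.45.

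Regulators known to act on killer cell genes differed in part. Before re-stimulation 8 of 24 were at least 2-fold higher on the KO array and 1 was lower, against 5.27% and 2.83% of all genes, with a median of 0.38. Eomes, a T-box factor of killer cells, gave 283 in WT cells and 860 on the KO array, a difference of 1.61 that was -0.10 after re-stimulation. Tbx21, the other T-box factor, differed by -0.18 and -0.27, and Runx3 by 0.26 and 0.10. Prdm1, coding for Blimp-1, was higher by 1.31 and 1.98, Batf3, an AP-1 family factor, by 1.77 and 1.75, and Id2, an E protein inhibitor, by 1.74 and 1.43. Nfil3 (1.41), Fosl2 (1.08), Ikzf3 (1.06) and Zeb2 (a bound of 1.46) were the others higher before re-stimulation. Tcf7, a factor of naive and memory T cells, was lower, at -1.57 and -1.99. After re-stimulation 4 of 24 were higher, Batf (1.26) besides Prdm1, Batf3 and Id2, and 2 were lower, Fos (-1.39) besides Tcf7. The shares over all genes were then 5.17% higher and 3.86% lower. Beside the same shares, 1 of 11 interleukin receptor genes was higher before (Il12rb1, 2.07) and 0 after re-stimulation, when 1 was lower (Il18r1, -1.04).

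The genes most like the members over the 4 arrays were found by the distance between log2 values, each gene centred on its own mean, among 10810 genes measured on all arrays less the members compared with. The 4 points per gene make this a description. Closest to the mean of Gzmb, Gzmc and Gzmd were Gcnt1 (distance 0.448), Hrc (0.506), Kctd12 and Wdfy1 (both 0.509) and Gzma (0.531). Closest to Prf1 were Ptprk (0.224), Gzmc (0.262) and Batf3 (0.456). Kctd12 (0.461) and Spp1 (0.505) were closest to Gzma, and Cd2ap (0.09) and Dock11 (0.098) to Gzmm.

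Markers of other cells were read beside these values. Mast cell and basophil genes were also higher on the KO arrays. Of 10 with a probe, 2 and 1 were well above background on the WT arrays and 7 on each KO array, and their summed level was 0.487 and 1.05 times the 75th percentile in WT cells and 3.37 and 5.42 on the KO arrays. Cpa3, coding for the carboxypeptidase of mast cells, gave 339 and 195 on the KO arrays and was well above background on neither WT array. Prss34 gave 32.8 and 15.7 in WT cells, the second not well above background, and 293 and 244 on the KO arrays. Fcer1a gave 74.4 and 76.6 and Gata2 25.9 and 27.9 on the KO arrays, and neither was well above background on a WT array. Hdc, measured on all 4 arrays, was higher by 0.86 and 1.53. Mcpt4, Tpsb2 and Ms4a2 were well above background on 0 of the 4 arrays. This list holds Mcpt8 and Cma1 of the chromosome 14 stretch, and its part in the results was not tested. Of 8 NK and NKT cell genes, 3 were well above background on each WT array and 4 on each KO array, with summed levels of 1.40 and 1.28 against 3.00 and 2.89. Tyrobp, an adaptor of NK and myeloid cells, was higher by 1.92 and 1.87 and made up most of that gap. Of 5 compared at each time, 2 were at least 2-fold higher before and 1 after re-stimulation, against 5.27% and 5.17% of all genes. None was lower by that much. Fcgr3 was higher by bounds of 1.27 and 0.69, and Klra8 by bounds of 0.54 and 0.56. Klrb1c, coding for the NK1.1 receptor, differed by 0.32 and -0.21, and Klre1 by bounds of -0.61 and -0.48. The NK receptor genes Ncr1, Klra4 and Klri2 were well above background on 0 of the 4 arrays. Of 5 myeloid genes, 3 and 1 were well above background on the WT arrays and 2 and 1 on the KO arrays, with Adgre1 higher by 1.16 and 1.56. Averaged over its probes, Adgre1 was higher by 2.75 and 0.85. Cd8a, the marker of CD8 T cells, was well above background on the KO array after re-stimulation alone, at 63.0. The part of these cells in the results was not tested.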

How the data were processed

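Expression in 4 samples (Bach2 WT and Bach2 KO, before and after re-stimulation) was read on 1 one-colour Agilent array each, all on 1 slide and in 1 scan. The authors deposited 1 intensity per spot from Feature Extraction 10.7, background-subtracted and detrended by that software, with flags for background, saturation and uneven spots and the scanner's error of each intensity. The authors also deposited a table of log2 values, which lay within 0.01 of the scaled values computed here for at least 41001 of 41173 probes.

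Flagged outlier spots (107 to 120 per array) were left out, spots of a probe were averaged as log2 values, and the array's 75th percentile was subtracted. No spot was saturated, and 53.6% to 54.0% of probes were well above background. Of the probes, 27479 were named through RefSeq transcripts (GRCm38.p6), of which only names and gene order were used beside the promoter windows. Genes with several probes were read from the brightest. A gene was compared where at least 1 of the 2 arrays was well above background, and the dimmer value was raised to the lowest such signal of its array. Genes were counted past 2-fold, a rule of size without a test. The members and lists were chosen with earlier results of these data known. All 10 members are named. From the other lists, many but not all genes past 2-fold between genotypes are named, with some genes of stated role. Alternatives were other scalings, normexp correction with an offset of 50 (limma 3.58.1, R 4.3.3), the authors' table, other probe and background rules and 3-fold. Promoters were aligned with Biopython 1.88. The scripts were tested on simulated data. Python 3.11.15 was used.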

Additional observations from a re-analysis of the deposited data

Results flagged for a closer look

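Among the listed genes, 3 were higher in KO cells by at least 2-fold before re-stimulation and lower in KO cells, within 2-fold but by more than the median spread between probes, after it. None of these changes was tested, since there was 1 array per condition. Fosl2, an AP-1 family gene, differed by 1.08 on the log2 scale before and by -0.2 after re-stimulation. Nodal, a neighbour of Prf1, differed by 1.25 and -0.22, with low signals of 22.1 to 52.3 over the arrays. Serpina3f, listed among the inhibitors, differed by 1.2 and -0.63. For the later difference the scanner's model gives an error of 0.204 for Fosl2, 0.319 for Nodal and 0.204 for Serpina3f. The later differences of Fosl2 and Nodal do not exceed that error.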

How the results depend on the processing

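Over the members, 36 log2 differences were recomputed under alternatives, giving 316 values, of which 236 stayed within the probe-to-probe spread, 80 moved further and 0 called differences changed sign. The number of members at least 2-fold higher on the KO array before re-stimulation was 8, and 5 where both arrays had to be well above background. The number higher after re-stimulation in KO cells was 3, and became 0 with scaling to the array median, 1 with quantile normalization, 5 with scaling to Cd3e, 1 with normexp correction and 0 with the 3-fold rule. In WT cells it was 3, and became 6 with no filter and no floor and 1 with the 3-fold rule. Scaling to the array median moved the median of all genes to -0.30 and -0.26 on re-stimulation in WT and KO cells, and scaling to Cd3e moved it to 0.29 and 0.26, and no filter and no floor to 0.33 and 0.30. The normexp correction, which adds an offset, lowered the dim genes most, with the difference before re-stimulation at 3.34 for Gzmd, 2.48 for Gzme, 1.60 for Gzmf and 3.15 for Gzmg. No paired analysis was possible because each condition had 1 array. Low signal limits Gzme, Gzmf, Gzmg and Gzmk, each not well above background on at least 1 WT array.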
